A study of Mus musculus with 38 samples.

Results

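The genes described here are 39 genes of fatty acid oxidation and of the peroxisome, taken as a fixed list of symbols from the 43346 genes of the count table. All 39 were found. By the place where the product is known to work, 17 are mitochondrial, 15 peroxisomal and 2 (Crat and Eci2) found in both organelles. The other 5 (Acsl1, Acsl3, Acsl4, Acsl5 and Acot1) are acyl-CoA synthetases or a cytosolic thioesterase and were kept as a class of their own. All 39 genes were measured in 4 macrophage populations sorted from the lungs of naive C57Bl/6 mice of 8 to 10 weeks. There were 3 RNA-seq libraries per population, with no treatment or genetic change named in the labels. Alveolar macrophages (AM), the cells of the airspace, were sorted as CD11c+ SiglecF+ cells lacking CD11b, CD103, Gr1 and lymphocyte markers. The interstitial macrophages, which lie in the lung tissue, were MerTK+ CD64+ CD11b+ cells split by MHC class II and the mannose receptor CD206 into IM1 (class II low, CD206 high), IM2 (high for both) and IM3 (class II high, CD206 low). The sorts are gates on surface proteins, so each library can hold more than 1 kind of cell, and the labels do not say whether the replicates A, B and C come from separate or pooled mice. The p-values therefore measure only the spread between these libraries, which may be technical. The interstitial cells passed an enrichment for MerTK that the AM protocol does not mention, so the sort and the population cannot be told apart.

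Long-chain fatty acids are joined to coenzyme A by acyl-CoA synthetases and enter mitochondria through the carnitine shuttle of CPT1 and CPT2. Inside, acyl-CoA dehydrogenases, hydratases, hydroxyacyl-CoA dehydrogenases and thiolases shorten the chain in repeated cycles, and the electrons pass through the electron transfer flavoproteins to the respiratory chain. Peroxisomes shorten very long and branched chains with their own oxidases, which make hydrogen peroxide that catalase removes. Their substrates are carried in by ABCD transporters, and their proteins are brought in and their membranes built by the peroxins (PEX proteins). Alveolar macrophages take up and break down surfactant, the lipid film of the airspace.

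Library totals ran from 11818981 to 15758326 reads assigned to genes, and 71.06% to 77.6% of mapped reads were assigned. Values are CPM, read counts scaled to the library total and by the trimmed mean of M values (TMM). The marker values of this paragraph and the floor of 3 counts, 0.19 to 0.254 CPM, are scaled to the library total alone. Fold changes are on the log2 scale from edgeR's quasi-likelihood test, given ± standard error with p-values adjusted over all 14095 genes tested. A gene is called at an adjusted p under 0.05, and n is 3 libraries per population. The 10 AM markers summed to 47900 to 55700 CPM in the AM libraries and 181 to 606 CPM in the interstitial libraries, and the 10 interstitial markers to 2650 to 3540 and 31100 to 66800 CPM. Markers of other cells were low: the 5 fibroblast markers summed to at most 0.327 CPM in AM (Col1a1, Col1a2, Col3a1 and Dcn at 0) and 32 to 116 CPM in the interstitial libraries, and the 5 endothelial markers to at most 0.0693 and 33.6 to 62.2 CPM. The 8 type 2 epithelial markers reached 92 to 103 CPM in AM, nearly all from Abca3, with Sftpb, Sftpd and Slc34a2 at 0. They reached 143 to 295 CPM in the interstitial libraries, mostly from Etv5 (75.8 to 175 CPM) and Abca3 (30.8 to 110 CPM). Sftpc was at 4.1 to 34.7 CPM there. Dendritic cell markers summed to 1.76 to 2.67 CPM in AM, 98.5 to 126 CPM in IM1 and IM2 and 24.7 to 45.1 CPM in IM3. The lower IM3 sums came from Cd209a (at most 7.06 CPM there) and Zbtb46 (at most 13.8 CPM). Flt3 had its highest values in IM3, at 24.8, 20.7 and 7.99 CPM by replicate. It reached no more than 3.97 CPM in any IM1 library and 9.9 CPM in IM2 replicate B, which was above IM3 replicate C. Xcr1 stayed at or below 0.625 CPM throughout. The airway epithelial, adipocyte, cardiomyocyte, neutrophil, eosinophil, B cell and NK cell lists summed to at most 11.8 CPM in any library. The part of these cells in the results was not tested. IM1 replicate A stood apart: it had the fewest reads and the highest share of multi-mapping reads (14.78%) of the 12 libraries, and lay far from the other IM1 libraries in Acads, Acsl1, Eci1 and Etfb. The T cell receptor gene Trac stood at 4070 CPM there, 1130 CPM in IM2 replicate B and 645 CPM in IM3 replicate B, and at no more than 0.939 CPM in the other libraries, while Cd3d and Cd3e stayed at or below 0.513 CPM throughout. In sorted bulk samples, fewer cells of a type and less RNA per cell cannot be told apart.

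Of the 39 members, 31 were lower and 2 higher in the interstitial populations (mean of IM1, IM2 and IM3) than in AM, and 6 were not called. Lower calls made up 28.7% of all genes tested and higher calls 35.9%. At least 2-fold lower calls numbered 17 of the 39 members, against 13.3% of all genes. The median log2 fold change was -0.83 over the members and 0.10 over all genes. The list was chosen with earlier results of these data known, so its shares beside those of all genes are a description, not a test. All 3 AM libraries lay above all 9 interstitial libraries for 29 members, a pattern shown by 22.2% of all genes, and below them for 2 (Acsl3 and Pex5), against 26.5% of all genes. In both organelles most members fell: 15 of 17 mitochondrial members fell and none rose, with a median of -0.88, and 12 of 15 peroxisomal members fell and 1 rose, with a median of -0.78. Both Crat and Eci2 fell, and of the synthetases and Acot1, 2 fell and 1 rose. All 39 passed the filter on low counts, though Acaa1b had only 2 to 18 counts in each interstitial library.

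**Figure D1:**
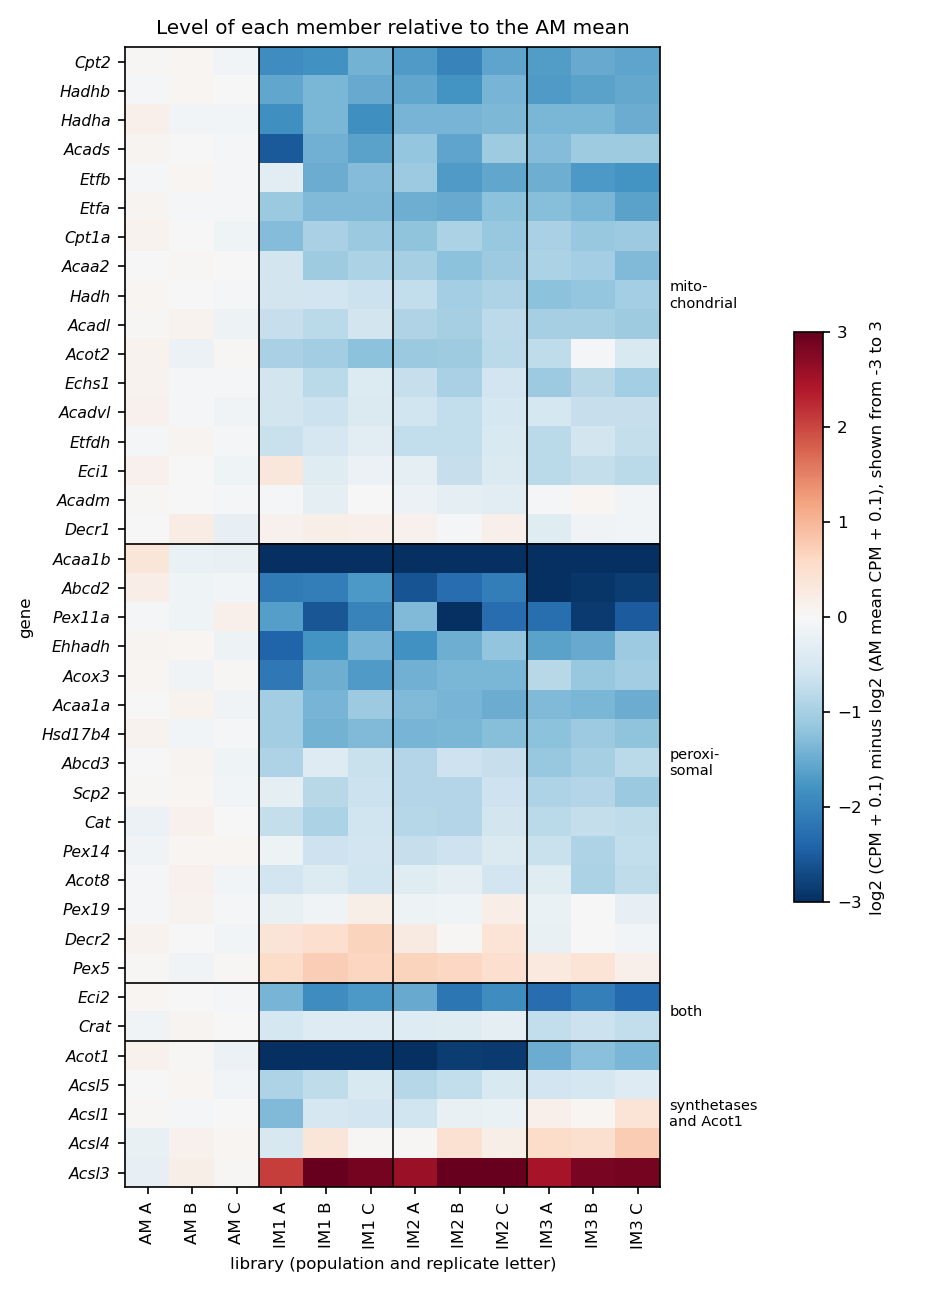
Level of the 39 members (rows, grouped by organelle and ordered by fold change) in the 12 libraries (columns), as the log2 difference from the mean of the AM libraries with 0.1 CPM added. Blue is below the AM mean and red above it, and colours stop at 3 in either direction, so Acaa1b and some values of Acot1, Abcd2 and Acsl3 lie beyond the scale. Most rows are blue in all 9 interstitial libraries, Acsl3 is the only row that is deep red, and Decr1, Acadm and Pex19 are nearly white.

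Per kilobase of exon (RPKM), which allows levels to be compared between genes, the members ran in AM from Etfa at 165 RPKM, followed by Etfb at 156, Hsd17b4 at 153 and Cat at 134 RPKM, down to Acsl3 at 1.34 RPKM. The first 3 were not set apart by their spread, with SDs of 7.75, 6.73 and 10.6 RPKM that overlap. In IM1, IM2 and IM3 catalase was at 79.5, 79.04 and 79.05 RPKM, and Etfa at 69.5, 62.3 and 61.9 RPKM. The 17 mitochondrial genes summed to 907, 884 and 835 RPKM in the AM libraries, 552, 435 and 469 in IM1, 442, 388 and 434 in IM2 and 422, 413 and 384 in IM3. The 15 peroxisomal genes summed to 690.4, 660.0 and 636 RPKM in AM, 333, 306 and 342 in IM1, 297, 297 and 333 in IM2 and 289.9, 307 and 291 in IM3. AM libraries were above every interstitial library for both sums, and the AM mean was 2.00 and 2.13 times the interstitial mean. Single genes weigh on these sums. In the peroxisomal sum, Acaa1b was at 70.2 RPKM in AM and 0.517, 0.392 and 0.196 RPKM in IM1, IM2 and IM3. In the mitochondrial sum, Etfb, whose counts are uncertain, was at 156 RPKM in AM and 80.9, 58.1 and 49.6 RPKM. Whether the 2 ratios differ was not tested. The highest interstitial mitochondrial sum was that of IM1 replicate A, the library that stood apart. The synthetases and Acot1 summed to 141, 143 and 131 RPKM in AM, 64.2, 84.3 and 91.4 in IM1, 76.3, 90.04 and 100 in IM2 and 103, 107 and 118 in IM3, 1.49 times more in AM than in the interstitial mean.

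**Figure D2:**
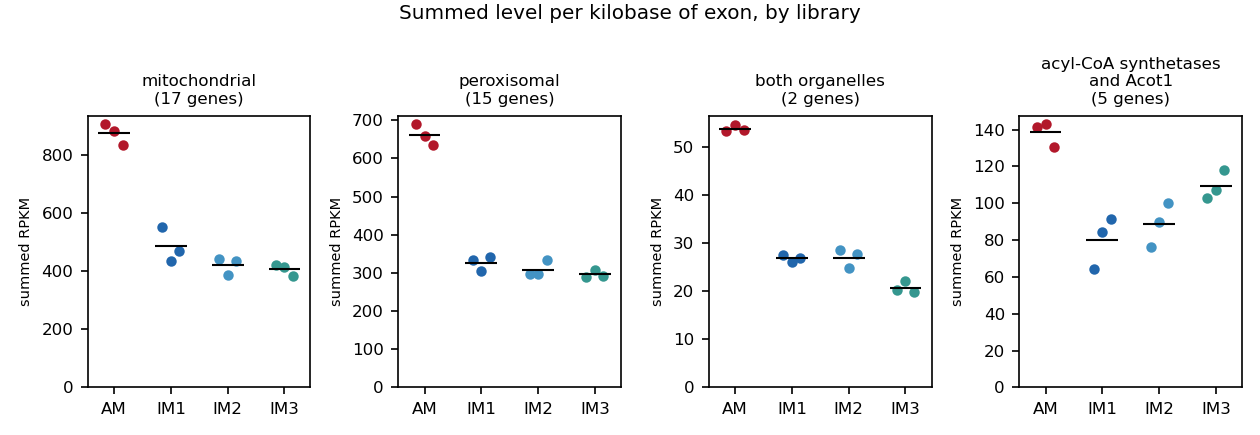
Summed RPKM of the members of each class (vertical axes, from 0, 1 scale per panel) in each library (points) of the 4 populations, with the mean as a black line. The AM points lie above all others in every class. The synthetases with Acot1 sum to 131 to 143 RPKM in AM, 103 to 118 RPKM in IM3 and 64.2 to 91.4 RPKM in IM1.

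The carnitine shuttle was lower at both steps. Cpt1a, the outer-membrane carnitine palmitoyltransferase that controls entry, stood at 489, 454 and 416 CPM in the AM libraries and 184 to 233 CPM (median 209) in the interstitial ones, a log2 fold change of -1.10 ± 0.10, adjusted p 5.22e-08. Cpt2, its partner on the inner membrane, stood at 88.6, 90.3 and 81.5 CPM in the AM libraries and 21.7 to 32.5 CPM (median 27.3) in the interstitial ones, a change of -1.67 ± 0.11, adjusted p 2.47e-09. For both genes every AM library lay above every interstitial library, and the 3 interstitial populations were close to each other: no pair of them was called. Crat, which makes short-chain carnitine esters in both organelles, was at 116, 132 and 127 CPM in AM, 86.5, 94.9 and 95.8 in IM1, 95.5, 96.8 and 104 in IM2 and 75.5, 79.6 and 74.5 CPM in IM3. It was lower by less, -0.49 ± 0.09, adjusted p 0.000134, with IM3 the lowest.

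Of the 4 acyl-CoA dehydrogenases, which start each cycle for chains of different length, Acads (short chains) fell the most. It stood at 67.4, 63.6 and 61.4 CPM in AM, 11.1, 23.5 and 20.9 in IM1, 28.6, 21.3 and 30.3 in IM2 and 25.8, 30.7 and 30.5 CPM in IM3, a change of -1.40 ± 0.16, adjusted p 1.64e-06 for the interstitial mean, with IM1 replicate A the lowest library. Acadl (long chains) changed by -0.87 ± 0.09 and Acadvl (very long chains) by -0.60 ± 0.10, both called. Acadm (medium chains) was not called: its AM libraries were at 122, 118 and 116 CPM and the interstitial libraries ran from 94.9 to 124 CPM, overlapping, with a change of -0.12 ± 0.09, adjusted p 0.251. Of Acadvl's exon bases 42.9% overlap exons of Dvl2, and reads falling in both were not counted.

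The trifunctional protein, whose 2 subunits carry the later steps of the cycle for long chains, fell in both subunits. Hadha, the alpha subunit, stood at 177, 149.7 and 150.3 CPM in the AM libraries and 44.2 to 62.5 CPM (median 60.4) in the interstitial ones, a change of -1.48 ± 0.11, adjusted p 4.77e-09. Hadhb, the beta subunit, stood at 53.95, 58.7 and 55.3 CPM in the AM libraries and 16.1 to 21.6 CPM (median 19.1) in the interstitial ones, a change of -1.55 ± 0.10, adjusted p 2.3e-09. The 2 genes lie next to each other on chromosome 5 on opposite strands, Hadha at chr5:30118301-30155162, minus strand and Hadhb at chr5:30155248-30184593, plus strand (mm10), and neither overlapped between AM and the interstitial libraries. Acaa2, the mitochondrial thiolase, stood at 108, 112 and 108 CPM in the AM libraries and 44.05 to 74.8 CPM (median 53.8) in the interstitial ones, a change of -1.01 ± 0.11, adjusted p 1.1e-06. Echs1, the short-chain hydratase, changed by -0.76 ± 0.11 and was called as well. Of the 100-base words of Hadhb, 14.8% also occur in other annotated genes, mainly Gm13910. The effect of this sharing on the Hadhb counts was not tested.

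Hadh, the dehydrogenase for medium and short chains, and Eci1, an isomerase for unsaturated chains, differed between the interstitial populations. Hadh was at 57.7, 55.6 and 52.9 CPM in AM, 37.5, 37.1 and 35.2 in IM1, 33.3, 27.3 and 28.9 in IM2 and 23.4, 24.9 and 27.3 CPM in IM3. It fell by 0.88 ± 0.10 against AM (adjusted p 1.14e-06), and IM1 lay above IM3 in every library, a difference of 0.54 ± 0.13, adjusted p 0.00616. Eci1 was at 83.8, 75.7 and 70.3 CPM in AM, 96.2, 59.2 and 67.5 in IM1, 62.03, 47.8 and 56.6 in IM2 and 43.5, 46.7 and 43.8 CPM in IM3. IM1 replicate A was the highest of all 12 libraries, so AM and interstitial libraries overlapped. Its change against AM was -0.43 ± 0.13, adjusted p 0.0097, and the call was lost without AM replicate A (-0.37, adjusted p 0.0628). IM1 was above IM3 by 0.73 ± 0.17, adjusted p 0.00457.

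Decr1, the mitochondrial dienoyl-CoA reductase, was at 24.03, 28.1 and 20.6 CPM in AM and 18.7 to 27.3 CPM in the interstitial libraries, overlapping, with a change of 0.01 ± 0.12, adjusted p 0.931. Its peroxisomal counterpart Decr2 was at 45.05, 41.4 and 39.5 CPM in AM, 54.96, 59.4 and 67.2 in IM1, 50.9, 43.1 and 56.1 in IM2 and 36.1, 42.6 and 39.6 CPM in IM3. The interstitial mean of Decr2 was not called (0.23 ± 0.11, adjusted p 0.0872) but became called without IM1 replicate A (0.25, adjusted p 0.0427). IM1 alone was above AM by 0.53 ± 0.14, adjusted p 0.0036, and above IM3 by 0.62 ± 0.14, adjusted p 0.0037. Eci2, an isomerase of both organelles, was at 82.8, 78.9 and 78.1 CPM in AM, 30.2, 22.02 and 24.1 in IM1, 28.1, 17.7 and 21.9 in IM2 and 16.3, 19.4 and 15.8 CPM in IM3, a change of -1.90 ± 0.13, adjusted p 2.41e-09, the largest of the isomerases and reductases listed.

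The electron transfer genes fell together. Etfa, a subunit of the electron transfer flavoprotein, stood at 319, 294 and 295 CPM in the AM libraries and 98.9 to 141 CPM (median 121) in the interstitial ones, a change of -1.35 ± 0.10, adjusted p 4.07e-09. Etfb, the other subunit, was at 173, 187 and 175 CPM in AM, 140.2, 63.7 and 72.6 in IM1, 83.4, 54.6 and 60.7 in IM2 and 64.5, 53.98 and 51.02 CPM in IM3, a change of -1.35 ± 0.18, adjusted p 8.49e-06. IM1 replicate A was again far above the other interstitial libraries, and 35.8% of the 100-base words of Etfb also occur in the annotated gene Gm45233, so its counts are uncertain. Etfdh, the dehydrogenase that passes the electrons to ubiquinone, changed by -0.60 ± 0.10 and was called.

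Among the peroxisomal genes the largest difference of the whole list was in Acaa1b, a 3-ketoacyl-CoA thiolase, and its paralogue Acaa1a fell far less. Acaa1b (chr9:119148023-119157093, minus strand, mm10) was at 176, 119 and 118 CPM in AM, 1.14, 1.19 and 0.714 in IM1, 1.05, 0.561 and 0.694 in IM2 and 0.397, 0.147 and 0.609 CPM in IM3. Every interstitial library lay below every AM library, and the log2 fold change was -7.67 ± 0.19, adjusted p 2.34e-14. Acaa1a (chr9:119339676-119350299, plus strand) was at 238, 262 and 224 CPM in AM, 117, 91.5 and 114 in IM1, 97.1, 92.4 and 86.7 in IM2 and 97.2, 94.02 and 85.7 CPM in IM3, a change of -1.32 ± 0.09, adjusted p 5.19e-09. In AM the paralogues were at 70.2 and 54.7 RPKM, whereas IM1, IM2 and IM3 held 0.517, 0.392 and 0.196 RPKM of Acaa1b and 24.4, 20.9 and 20.9 RPKM of Acaa1a. Of their 100-base words, 19.3% in Acaa1b and 7.2% in Acaa1a are shared between the pair, and 11.4% of Acaa1b's exon bases overlap Dlec1, so some reads of either gene went uncounted or could have been assigned to the other.

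The residual Acaa1b in the interstitial libraries was 0.737%, 0.559% and 0.279% of the AM mean in IM1, IM2 and IM3. Of the AM marker list, Fabp4 stood at 0.822%, 0.599% and 0.228%, Marco at 0.713%, 0.386% and 0.254% and Car4 at 0.646%, 0.343% and 0.167%. Ear1 stood at 0.188%, 0.139% and 0.0253%, Krt79 at 0.161%, 0.07% and 0.0123% and the very abundant Chil3 at 0.361%, 0.126% and 0.0214%. The order of the means, IM1 above IM2 above IM3, was the same for these 6 markers, chosen after their values were seen, and for Acaa1b, while the markers Itgax, Siglecf and Pparg were highest in IM3 and Ear2 was highest in IM2. Acaa1b was called between IM1 and IM3 (1.35 ± 0.46, adjusted p 0.0425), at 2 to 18 counts a library, and that call was lost without IM3 replicate B (0.99, adjusted p 0.15). The part of AM RNA in this difference was not tested.

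The 130 bases before the RefSeq start of each paralogue are shown because the pair sit on the same chromosome with such different contrasts. Capitals mark the bases paired by the best local alignment of the 2 stretches, both written 5′ to 3′ along the gene's own strand, from RefSeq on GRCm38.p6 (chr9:119341164-119341293, plus strand, and chr9:119157094-119157223, minus strand). The gene span given above for Acaa1a, from the Ensembl 78 genes of the counts, opens further upstream, so the stretch shown lies inside that span.
Acaa1a: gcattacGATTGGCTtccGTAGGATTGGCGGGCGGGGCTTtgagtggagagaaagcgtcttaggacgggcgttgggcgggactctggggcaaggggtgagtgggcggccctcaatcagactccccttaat
Acaa1b: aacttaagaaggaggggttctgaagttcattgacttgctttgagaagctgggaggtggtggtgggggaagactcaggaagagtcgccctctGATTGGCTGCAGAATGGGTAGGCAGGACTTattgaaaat
The alignment pairs 30 bases, of which 23 (76.7%) are identical, and the rest of the stretches was left unaligned. Both aligned parts open with the same 8 bases.

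The direct repeat with a spacer of 1 base that PPAR and RXR receptors bind was searched on both strands as AGGTCA and AGGNCA elements in either order, separated by 1 free base. The window was 250 bases before to 50 bases after each RefSeq start. None of the 37 windows of the 33 members found in the promoter table held a match. Of all 32851 windows, 63 (0.192%) held one. No match says only that these letters are not in the window.

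The peroxisomal oxidase of the list and the multifunctional enzymes that act after it also fell. Acox3, an acyl-CoA oxidase for branched chains, was at 286, 257 and 285 CPM in AM, 61.9, 99.5 and 84.9 in IM1, 101, 107 and 107 in IM2 and 155, 125 and 134 CPM in IM3, with no overlap between AM and the others. Its change against AM was -1.38 ± 0.11, adjusted p 3.08e-08, and IM1 was below IM3 (log2 difference -0.75 ± 0.15, adjusted p 0.00192). Hsd17b4 (the D-bifunctional protein) stood at 560.5, 494 and 503 CPM in the AM libraries and 194 to 250.4 CPM (median 213) in the interstitial ones, a change of -1.26 ± 0.09, adjusted p 6.99e-09. Ehhadh (the L-bifunctional protein) stood at 35.9, 35.02 and 30.6 CPM in the AM libraries and 6.29 to 15.8 CPM (median 11.73) in the interstitial ones, a change of -1.56 ± 0.17, adjusted p 1.12e-06. Hsd17b4 was the more abundant of these 2 parallel enzymes in AM, at 153 against 11.2 RPKM. Scp2, whose long form is a peroxisomal thiolase, changed by -0.77 ± 0.11, Acot8, a peroxisomal thioesterase, by -0.54 ± 0.15, and Cat, which breaks down hydrogen peroxide, by -0.75 ± 0.10, all 3 called. Cat was nearly level across the interstitial populations, with means of 208 ± 25.2, 206 ± 28.3 and 207 ± 7.04 CPM (SD, n = 3). Of the 100-base words of Scp2, 21.8% also occur in Scp2-ps2, and the effect on the Scp2 counts was not tested.

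Both transporters of the peroxisomal membrane fell, by different amounts. Abcd2, which carries very long-chain acyl-CoA, was at 387, 311 and 319 CPM in AM, 78.2, 79.9 and 103 in IM1, 56.2, 69.02 and 80.98 in IM2 and 31.6, 44.9 and 47.4 CPM in IM3. The AM libraries were far above the rest and IM3 held the lowest values, all 3 under every IM1 and IM2 library. Its change was -2.43 ± 0.13, adjusted p 1.39e-10 against AM, and IM1 and IM2 were above IM3 by 1.08 ± 0.18, adjusted p 0.000372, and 0.74 ± 0.18, adjusted p 0.0119. The difference between IM2 and IM3 was not called without IM2 replicate C (0.60, adjusted p 0.0747) or without IM3 replicate A (0.58, adjusted p 0.0711). Abcd3, the more widely expressed transporter, changed by -0.78 ± 0.11, adjusted p 2.18e-05.

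The 4 peroxins of the list went in both directions. Pex11a, which promotes peroxisome division, fell: it stood at 17.9, 16.8 and 20.6 CPM in the AM libraries and 2.24 to 7.3 CPM (median 3.72) in the interstitial ones, a change of -2.23 ± 0.25, adjusted p 9.73e-07. Pex5, the receptor that brings enzymes into the matrix, was higher in every interstitial library, with 69.1, 62.6 and 69.2 CPM in AM, 97.4, 111 and 104 in IM1, 107, 103 and 94.3 in IM2 and 82.6, 88.3 and 74.8 CPM in IM3. Its change was 0.51 ± 0.10, adjusted p 0.000312, and IM1 was above IM3 by 0.35 ± 0.12, adjusted p 0.0421, a call lost without any one of 9 libraries (adjusted p up to 0.166). Pex14, the docking protein that receives PEX5, changed by -0.60 ± 0.13, adjusted p 0.000711, in the opposite direction, though 28.3% of its exon bases overlap Gm17029. Pex19, the chaperone of membrane proteins, was not called: it was at 69.9, 77.3 and 68.9 CPM in AM and 60.96 to 83.3 CPM in the interstitial libraries, overlapping, with a change of -0.06 ± 0.11, adjusted p 0.638.

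The acyl-CoA synthetases, which activate fatty acids for oxidation or for storage, differed in direction. Acsl3, found on the endoplasmic reticulum and lipid droplets, was at 4.9, 6.67 and 5.96 CPM in AM, 24.99, 48.02 and 43.3 in IM1, 35.8, 52.8 and 57.7 in IM2 and 32.9, 42.5 and 43.6 CPM in IM3. All interstitial libraries were far above AM, a change of 2.85 ± 0.23, adjusted p 2.66e-08, and no pair of interstitial populations was called. Acsl5 went the other way, at 276, 282 and 256 CPM in the AM libraries and 143 to 206 CPM (median 183) in the interstitial ones, a change of -0.62 ± 0.11, adjusted p 0.000119. In AM, Acsl5 was the most abundant of the 4 synthetases at 86.1 RPKM and Acsl3 the least at 1.34 RPKM, and Acsl5 stood at 53.1, 53.7 and 61.2 RPKM in IM1, IM2 and IM3 against 8.9, 11.2 and 9.11 RPKM of Acsl3.

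Acsl1, the main synthetase linked to oxidation, was at 109, 102 and 107 CPM in AM, 42.03, 74.8 and 71.5 in IM1, 70.2, 90.7 and 92.1 in IM2 and 118, 111 and 142 CPM in IM3. The IM1 libraries were all below the AM libraries and the IM3 libraries all above them. The interstitial mean was not called (-0.29 ± 0.15, adjusted p 0.103), and became called without IM1 replicate B (-0.33, adjusted p 0.0484). IM1 was below IM3 (log2 difference -0.97 ± 0.19, adjusted p 0.00131). For IM2 against IM3 the difference was -0.55 ± 0.19, adjusted p 0.0744, not called. With the replicate letter as a block it was called (-0.56, adjusted p 0.0318), though same-letter IM2 and IM3 libraries deviated together only weakly. It was also called with no filter on low counts (adjusted p 0.0101), with only the libraries compared (adjusted p 0.00922), and without IM1 replicate A (adjusted p 0.0036) or B (adjusted p 0.0484). Acsl4, which prefers arachidonic acid, was at 43.6, 55.4 and 52.95 CPM in AM, 36.4, 65.2 and 51.6 in IM1, 51.9, 69.2 and 56.8 in IM2 and 74.7, 70.3 and 86.6 CPM in IM3. It was not called for the interstitial mean (0.28 ± 0.16, adjusted p 0.122), but was without IM1 replicate A (0.35, adjusted p 0.0139), and IM1 was below IM3 (log2 difference -0.59 ± 0.19, adjusted p 0.0307), a call that was lost without IM1 replicate A (-0.40, adjusted p 0.0738).

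Each interstitial population set singly against the same AM libraries gave nearly the same counts: 31 lower and 3 higher in IM1, 30 and 2 in IM2, and 30 and 3 in IM3. Lower calls over all genes were 25.7%, 26.2% and 25% for these comparisons, and higher calls 33.1%, 34.3% and 32.4%. Between the interstitial populations fewer members were called. IM1 and IM2 differed in 1 of 39 members, against 1.71% of all genes (241 genes, and 392 with the replicate letter as a block). IM1 and IM3 differed in 14 members, 6 lower and 8 higher in IM1, against 24.4% of all genes. IM2 and IM3 differed in 3 members (Acot1, Abcd2 and Crat), against 11.4% of all genes. Crat was higher in IM2 than in IM3 by 0.37 ± 0.11, adjusted p 0.0402, a call lost without any one of 9 libraries. Between IM1 and IM3, 14 of 39 is a somewhat higher share than the 24.4% of all genes, and this difference was not tested. Of these 14 members, 7 (Hadh, Eci1, Decr2, Acot1, Acsl1, Acox3 and Abcd2) kept the call under every alternative run that uses the same threshold. The other 7 lost it under at least 1.

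**Figure D3:**
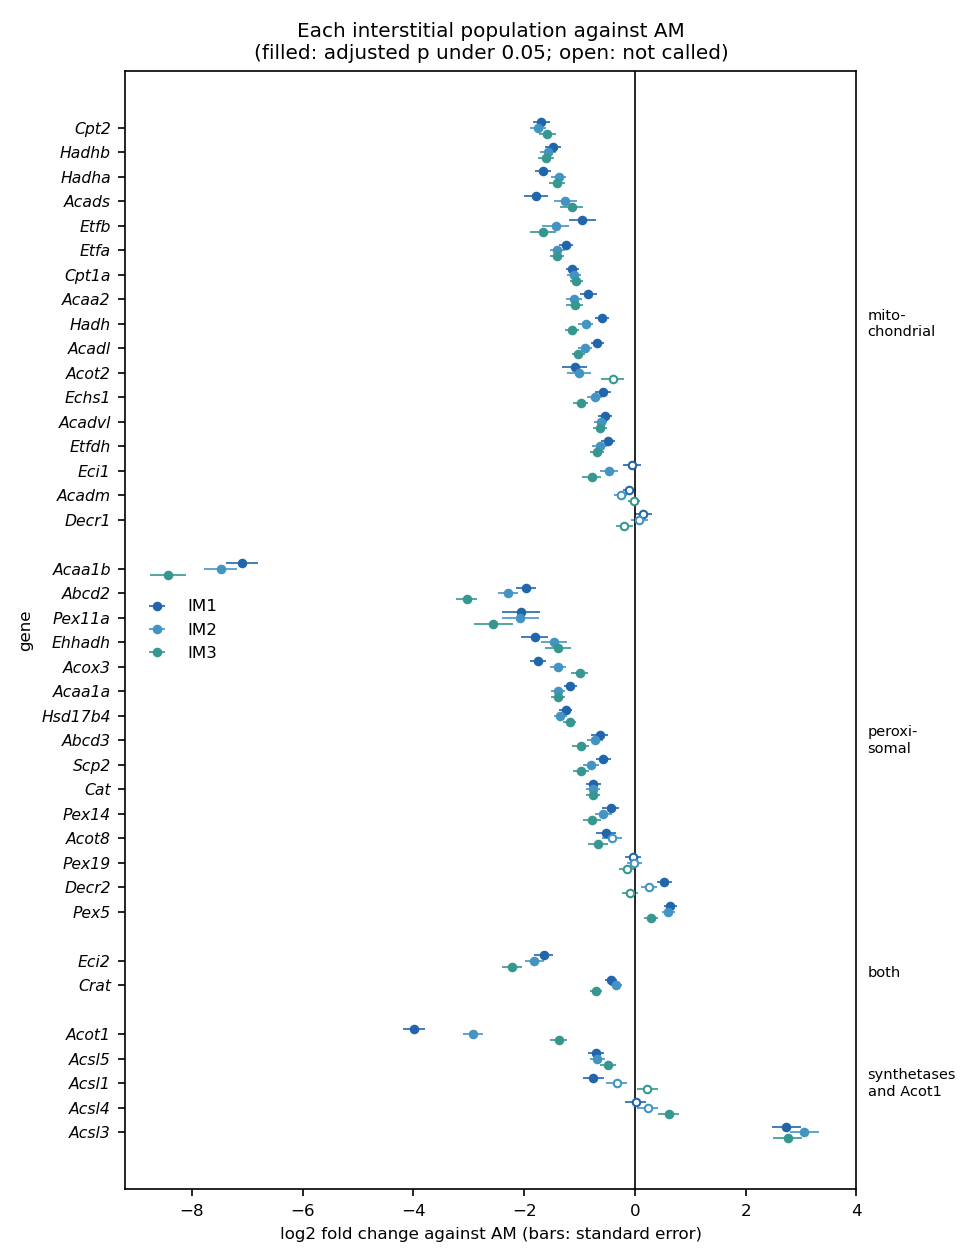
Log2 fold change of each member (rows) against AM in IM1, IM2 and IM3, with bars for the standard error, filled points for an adjusted p under 0.05 and open points for those not called. The points of the 3 populations lie close together for most genes, while Acot1 runs from -3.99 in IM1 to -1.38 in IM3 and Abcd2 runs the other way.

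The clearest grading between the interstitial populations was in Acot1, a cytosolic thioesterase that releases free fatty acids from acyl-CoA. Acot1 (chr12:84009502-84017670, plus strand, mm10) was at 51.7, 48.6 and 41.8 CPM in AM, 3.06, 3.58 and 2.27 in IM1, 5.8, 6.45 and 6.43 in IM2 and 16.8, 19.6 and 18.2 CPM in IM3. The 4 populations did not overlap, with IM1 the lowest, then IM2, then IM3, then AM. Its change was -2.77 ± 0.12, adjusted p 1.6e-11 for the interstitial mean, -2.62 ± 0.19, adjusted p 7.81e-08 between IM1 and IM3, and -1.55 ± 0.17, adjusted p 1.7e-05 between IM2 and IM3. IM1 was below IM2 (log2 difference -1.07 ± 0.19, adjusted p 0.00872), a call lost when only the libraries of IM1 and IM2 were fitted (-1.07, adjusted p 0.215) and without IM1 replicate C (-0.91, adjusted p 0.0546).

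Acot2, the mitochondrial thioesterase near Acot1 on chromosome 12 (chr12:83987861-83993873, plus strand), was at 13.4, 11.02 and 12.8 CPM in AM, 6.29, 5.97 and 5.19 in IM1, 5.65, 5.82 and 7.0 in IM2 and 7.21, 11.9 and 9.07 CPM in IM3. IM3 replicate B overlapped the AM libraries. Its change was -0.83 ± 0.17, adjusted p 0.000382 against AM and -0.69 ± 0.22, adjusted p 0.0295 between IM1 and IM3, the latter lost without IM3 replicate B (-0.49, adjusted p 0.155). Of the 100-base words, 12.4% in Acot1 and 17.1% in Acot2 occur in other genes of the family, so reads from these stretches were not counted or cannot be told apart. Per length, Acot1 was at 30.4 RPKM in AM and 1.91, 3.99 and 11.69 RPKM in IM1, IM2 and IM3, and Acot2 at 5.65 and 2.65, 2.8 and 4.29 RPKM.

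Of the 103 other genes listed for these pathways, 102 were in the table and 87 were tested. Of the 87, 45 were lower and 20 higher in the interstitial mean than in AM and 22 were not called, with a median of -0.42, which is the same with genes at 0 counts in AM set at their bound. Among the largest decreases were those of Bdh1, a ketone body dehydrogenase (-7.30 ± 0.41), the peroxisomal thioesterase Acot4 (-5.74 ± 0.61), Nudt12 (-5.12 ± 0.31) and Pparg. Acot4 had 72 counts in AM and 3 in the interstitial libraries, a ratio of 73.5 with a 95% counting interval of 24.2 to 365. Among the largest increases were those of Acss3, Acacb, Cpt1c and Paox. Acss3, a mitochondrial short-chain acyl-CoA synthetase, had 0 counts in AM and 48 in the interstitial libraries, at least 5.23-fold higher against 3 counts over the AM group. Acacb, an acetyl-CoA carboxylase whose malonyl-CoA restrains CPT1, had 2 counts in AM and 126 in the interstitial libraries, a ratio of 20.6 with a 95% counting interval of 5.58 to 172. Cpt1c, a carnitine palmitoyltransferase relative, changed by 2.74 ± 0.32, adjusted p 1.56e-06. It had 17 counts in AM and 355 in the interstitial libraries, a ratio of 6.82 with a 95% counting interval of 4.2 to 11.8. Paox, a peroxisomal polyamine oxidase, changed by 2.19 ± 0.29, adjusted p 7.67e-06.

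Of the PPAR regulators, Pparg, a lipid-sensing nuclear receptor on which alveolar macrophages depend, was at 207, 205 and 181 CPM in AM, 11.6, 14.2 and 15.6 in IM1, 11.3, 18.1 and 16.4 in IM2 and 40.3, 47.7 and 49.1 CPM in IM3. AM was far above the rest, and every IM3 library was above every IM1 and IM2 library. Its change was -3.21 ± 0.12, adjusted p 2.1e-12 against AM, and IM1 and IM2 were below IM3, with log2 differences of -1.72 ± 0.17, adjusted p 2.56e-06, and -1.58 ± 0.17, adjusted p 1.16e-05. Ppard stood at 4.2, 3.51 and 4.12 CPM in AM and 3.78 to 6.85 CPM in the interstitial libraries, a change of 0.40 ± 0.21, adjusted p 0.105, not called. Ppargc1b, a coactivator of oxidative genes, stood at 16.04, 13.4 and 14.7 and 4.98 to 13.9 CPM, a change of -0.42 ± 0.20, adjusted p 0.0822, not called. Ppara and Ppargc1a were not tested: they had 0 counts in AM and at most 0.442 and 0.778 CPM in an interstitial library. A count of 0 in AM allows up to 0.19 to 0.208 CPM in a library, scaled to the library total alone.

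**Figure D4:**
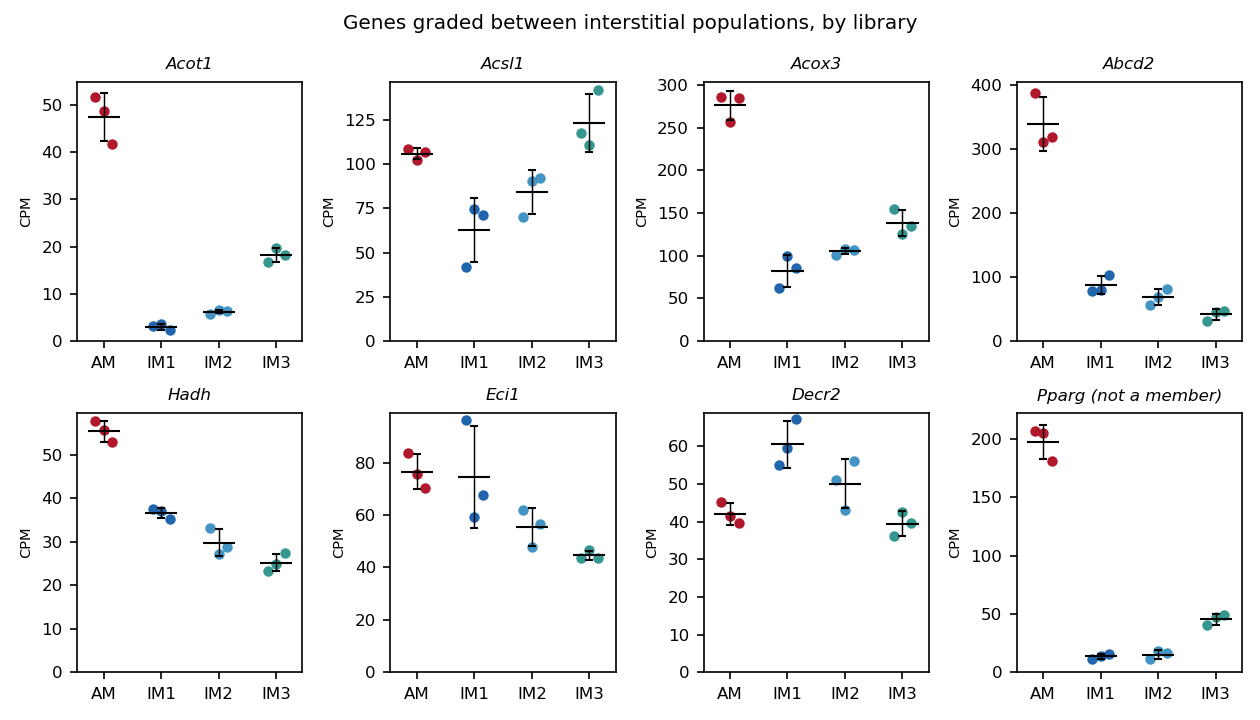
CPM (vertical axes, from 0) of the 7 members called between IM1 and IM3 under every alternative with the same threshold, and of Pparg, by library (points), with the mean and SD (black). Acot1, Acsl1, Acox3 and Pparg are higher in IM3 than in IM1, and Abcd2, Hadh, Eci1 and Decr2 are lower in IM3 than in IM1.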

How the data were processed

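Total RNA of sorted cells was amplified with SMART-Seq v4 and sequenced on Ion Proton, per the labels' protocols. The authors deposited counts of reads per gene and run. Per the file headers they come from featureCounts 1.5.0-p1, unstranded, on Ensembl 78 genes, without multi-mapping or ambiguous reads. STAR 2.5.1b and mm10 are named in the submitters' processing notes. The 38 runs were summed to 12 libraries, which equal the deposited library table (0 cells differ). Of 43346 identifiers, 42462 (98.0%) had a symbol in GENCODE M21.

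Tests used edgeR 4.0.16 (R 4.3.3): TMM scaling, filterByExpr with a minimum count of 10 (14095 genes), 1 quasi-likelihood fit of the 4 populations and Benjamini-Hochberg adjustment over all genes tested. The fit was tested on simulated data. RPKM are CPM per kilobase of merged exons. Members and gene lists were chosen with earlier results of these data known. Members were given by library, or by the 3 AM libraries with the range over the 9 interstitial ones, where they changed at least 2-fold, were called between interstitial populations or were not called against AM, and otherwise by their change. Of the other pathway genes, those with the largest changes were named, and some results are not reported here. Alternatives were RLE and upper-quartile scaling, DESeq2 1.42.0, no filter, a replicate block, fits of only the populations compared, a 2-fold rule, and each library left out. Same-letter libraries deviated together weakly in IM1 with IM2 (correlations 0.256, 0.166 and 0.292) and in IM2 with IM3 (0.189, 0.143 and 0.163). In the other pairs of populations the correlations ran from -0.122 to 0.165, the highest being IM1 with IM3 in letter C. The labels do not say what the letters mark, so pairing by letter is not established. Intervals and floors cover counting error only, since reads carry no molecular identifiers.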

Additional observations from a re-analysis of the deposited data

Results flagged for a closer look

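The members below are those for which a test of the difference between 2 interstitial populations passed an adjusted p of 0.05 over all genes, on the log2 scale. In IM1 against IM3, members lower in IM1 were Acot1 (-2.62), Acsl1 (-0.97), Acox3 (-0.75), Acot2 (-0.69 ± 0.22, adjusted p 0.0295), Acads (-0.64 ± 0.22, adjusted p 0.043) and Acsl4 (-0.59). Higher in IM1 were Acaa1b (1.35), Abcd2 (1.08), Eci1 (0.73), Etfb (0.70 ± 0.24, adjusted p 0.0439), Decr2 (0.62), Eci2 (0.57 ± 0.18, adjusted p 0.0283), Hadh (0.54) and Pex5 (0.35). In IM2 against IM3, Acot1 (-1.55) was lower and Abcd2 (0.74) and Crat (0.37) were higher in IM2. In IM1 against IM2, Acot1 (-1.07) was lower in IM1.

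The comparison of IM1 with IM3 lost 7 of its 14 calls under at least 1 alternative. Etfb fell to 0.27 (adjusted p 0.254) and Acads to -0.39 (adjusted p 0.0976) without IM1 replicate A. Without that library Eci2 was at 0.43 (adjusted p 0.0858), Acsl4 at -0.40 (adjusted p 0.0738) and Acaa1b at 1.27 (adjusted p 0.0917). Acads, Etfb and Pex5 lost the call without any one of 10, 8 and 9 of the 12 libraries, Acaa1b without 5, Acsl4 without 4, and Acot2 and Eci2 without 3 each, with adjusted p-values of at most 0.254. In IM2 against IM3, Crat lost its call without any one of 9 libraries (adjusted p up to 0.138), and Abcd2 without IM2 replicate C (0.60, adjusted p 0.0747) or IM3 replicate A (0.58, adjusted p 0.0711).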

How the results depend on the processing

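Against AM, 32 of the 33 calls held in every alternative at the same threshold, Eci1 being the exception, and no called member changed direction. The 33 calls became 18 with at least 2-fold required (lower 31 to 17, higher 2 to 1), and 32 to 35 with 1 library left out (lower 30 to 32, higher 2 to 4). Over all genes, 9107 became 5224 with 2-fold and 8208 to 9897 with 1 library left out, and the 65 other pathway genes 59 to 69. IM1 against IM2 had 1 member (0 with only the libraries compared, 0 to 5 with 1 left out, the most without IM1 replicate B). It had 241 genes in all (591 with DESeq2, 941 with no filter, 392 with the replicate block, 71 with only the libraries compared, 110 without IM2 replicate B and 1904 without IM1 replicate B). IM1 against IM3 had 14 members (3 with 2-fold, 7 with only the libraries compared, 8 to 17 with 1 left out, lowest without IM3 replicate A) and 3445 genes (1633, 2268, and 2441 to 4672). IM2 against IM3 had 3 members (1 with 2-fold, 5 with only the libraries compared, 1 without IM2 replicate C and 5 without IM1 replicate A) and 1611 genes (869 with 2-fold, 1143 to 2247). The cause of these changes was not tested. The replicate block also called Acsl1 against AM (-0.31, adjusted p 0.0472) and Echs1 between IM1 and IM3 (0.39, adjusted p 0.0493). Same-letter correlations between those populations ran from -0.122 to 0.165. Beside Acsl1 between IM2 and IM3, the block changed no other member's call. Members not called have no direction here. Depth limits Acaa1b most, at 2 to 18 counts in an interstitial library.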
